A study of Mus musculus with 2 samples.

Results

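Mir126a, Mir221 and Mir222 are microRNA (miRNA) genes known from blood vessels, and their counts were taken here from small RNA libraries of the embryonic mouse heart. They were picked by name, as the 3 genes with these symbols in the GENCODE mouse annotation, out of 1973 counted miRNA genes. All 3 were present and had at least 10 counts in both libraries, which is called detected below and which 327 genes met. The design holds 1 group, healthy hearts of B6NCrl embryos at day 15.5, with male and female embryos mixed in each pool. Replicate 1 pooled the hearts of 78 embryos and replicate 2 those of 62, so the spread between them is one between pools and cannot show how single embryos vary. The labels name no sort of a cell type or part of the heart, and no treatment. In bulk tissue, fewer cells of a type and less RNA per cell cannot be told apart. No condition was compared. The data answer how many counts each of these genes had, how they stood to each other, and whether the pools differed.

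A miRNA is cut from a hairpin precursor and loaded into an Argonaute protein, where its seed, the bases 2 to 8 from its 5′ end, pairs with sites in target mRNAs and lowers their output. Mir126a lies in Egfl7, a gene of endothelial cells, the cells that line vessels. Its main product is known to sustain growth factor signalling in endothelium by repressing the inhibitor Spred1, and mice without it have leaky vessels and bleeding. Mir221 and Mir222 are made from one primary transcript. They are known in endothelium and smooth muscle, where they repress the receptor Kit and the cell cycle inhibitor Cdkn1b.

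The sequences are shown because they decide which reads could be told apart and which genes share targets. All 3 genes matched an entry of the RefSeq miRNA table (build GRCm38.p6). The table holds no entry for the 5p arms of Mir126a and Mir222. The mature arms it does hold for the 3 genes follow, with the seed in capitals.
mmu-miR-126a-3p: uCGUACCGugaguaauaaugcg
mmu-miR-221-3p: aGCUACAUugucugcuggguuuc
mmu-miR-222-3p: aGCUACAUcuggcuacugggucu
mmu-miR-221-5p: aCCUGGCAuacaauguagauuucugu
The 3p arms of Mir221 and Mir222 have the same seed and the same first 8 bases. Beyond these bases they differ, with 11 of 23 positions identical in all. Of the 1738 mature miRNAs in the table, the only other one with this seed was mmu-miR-1928 (17 bases), whose gene Mir1928 had 0 counts in both libraries. No other entry had the seed of mmu-miR-126a-3p.

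The counts are per hairpin and do not say which arm a read came from. The hairpins are given with those arms in capitals, so lower case does not mark a stretch that yields no miRNA.
Mir126a: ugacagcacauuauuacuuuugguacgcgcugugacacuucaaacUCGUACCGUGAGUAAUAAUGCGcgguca
Mir221: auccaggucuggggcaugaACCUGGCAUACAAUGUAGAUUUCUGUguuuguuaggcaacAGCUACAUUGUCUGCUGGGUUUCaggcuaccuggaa
Mir222: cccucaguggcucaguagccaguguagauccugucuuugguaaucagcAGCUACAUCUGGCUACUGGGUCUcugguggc
The longest stretch that the Mir221 and Mir222 hairpins have in common is 9 bases. None of the 3 hairpins shared a stretch of 20 bases with another annotated miRNA hairpin at a different place, whereas 929 of the 1973 genes did. This bears on the counts because reads that matched several places, 33.0% of the reads of replicate 1 and 30.1% of those of replicate 2, were given to no gene. Matches elsewhere in the genome were not searched.

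The seeds differ in how often their sites occur in mouse mRNAs. The site that pairs with bases 2 to 8 of mmu-miR-126a-3p, CGGTACG, was found on the mRNA strand in 33 of 20990 longest 3′ untranslated regions (0.157%), whose median length was 961 bases. The site for Mir221 and Mir222, ATGTAGC, was found in 1986 of them (9.46%). With bases 2 to 7 alone, GGTACG was in 2.88% and TGTAGC in 28.2%. The longer sites contain the shorter ones. In the targets named above, sites for bases 2 to 7 stand as follows (GRCm38, plus strand, site in capitals).
Spred1, chr2:117178445-117178466: tttaactaaatgtaaGGTACGa
Cdkn1b, chr6:134924417-134924438: tctaaaagcattggaTGTAGCa
Kit, chr5:75654978-75654999: atgatgggagatataTGTAGCa
Kit, chr5:75656509-75656530: ttgtaaatattgaaaTGTAGCa
Spred1 had 1 such match, Kit had 2 and Cdkn1b had 4, of which the one shown also pairs with base 8. Both matches in Kit pair with base 8. The regions searched for Pik3r2 and Vcam1, known as targets of Mir126a, held no match to these letters. The mRNAs were not measured here, and a match is not a test of regulation.

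Mir126a (ENSMUSG00000065540.1) lies on the plus strand of chromosome 2 at positions 26591357 to 26591429 (GRCm38). In 7 coding transcripts of Egfl7 and in 1 annotated for nonsense-mediated decay it falls in an intron. In the coding transcripts with 10 exons this is intron 7, from 26591064 to 26591663. It overlaps the last exon of 1 transcript annotated as retained intron, which ends before that intron does. A transcript of Gm20532 also spans it with an intron. Mir221 (ENSMUSG00000065422.1, chromosome X, 19146294 to 19146388) and Mir222 (ENSMUSG00000065471.1, 19146893 to 19146971) are on the minus strand, 504 bases apart, with Mir222 first in the direction of transcription. Neither lies in an annotated gene. The nearest other gene on their strand is the noncoding Gm14636, which ends 10010 bases upstream of Mir222.

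**Figure D1:**
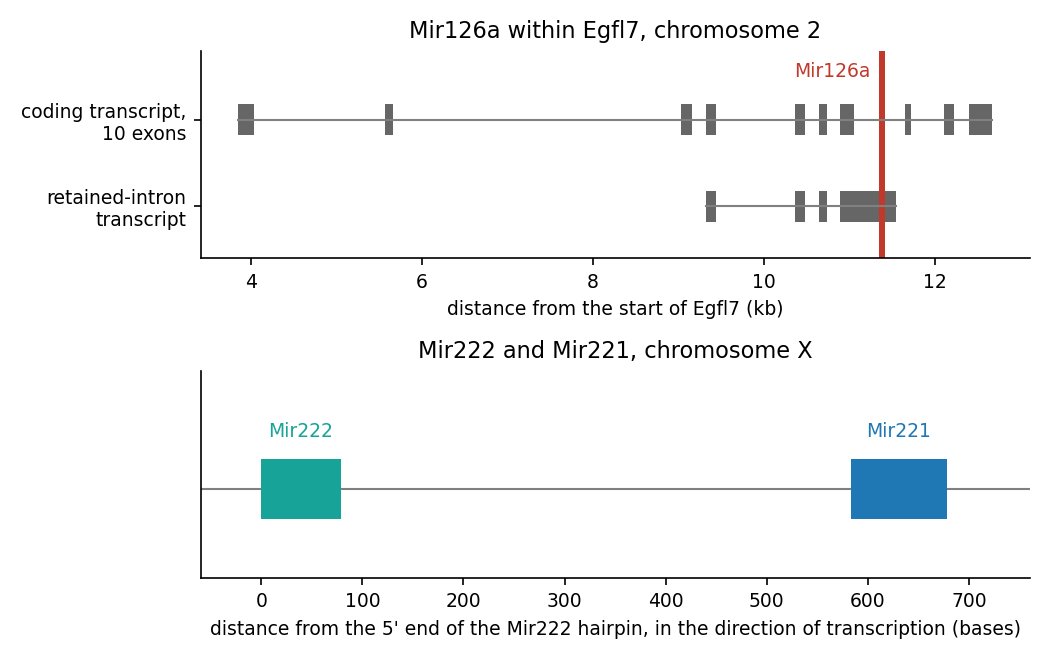
Positions of the hairpins along their genes: the upper panel gives the distance from the start of Egfl7 in kb, with exons of a coding transcript and of the transcript annotated as retained intron in grey, and the lower panel the distance in bases from the 5′ end of the Mir222 hairpin. Mir126a falls in intron 7 of the coding transcript and in an exon of the other, and Mir222 and Mir221 are 504 bases apart.

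Mir126a was among the miRNA genes with the most counts, and Mir221 and Mir222 were counted far less often. Levels are counts per 1000000 counts on the strand of miRNA genes (CPM), from totals of 3439539 counts in replicate 1 and 5833156 in replicate 2. Mir126a had 272469 counts in replicate 1 and 395343 in replicate 2, or 79217 and 67775 CPM. It took place 4 by level among the counted genes in both libraries, with 7.92% and 6.78% of all counts. Its place among all heart miRNAs is not known, since genes with a copy elsewhere can lose reads that match several places. Mir1a-1, with 3 counts in replicate 1 and 4 in replicate 2, and Mir133a-1, with 5 and 7, both known from heart muscle, share a 20-base stretch with another hairpin and may rank too low. Its mean was 73496 ± 8090 CPM (SD, n = 2).

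Mir221 had 237 counts in replicate 1 and 572 in replicate 2, or 68.9 and 98.1 CPM. By exact binomial (Clopper-Pearson) 95% limits, which cover counting error only, replicate 1 lay at 60.4 to 78.3 CPM and replicate 2 at 90.2 to 106 CPM. Mir222 had 89 and 292 counts, or 25.9 CPM in replicate 1 (limits 20.8 and 31.8) and 50.1 CPM in replicate 2 (limits 44.5 and 56.1). For both genes replicate 2 was the higher library and the intervals of the libraries did not overlap. The share of all genes whose intervals did not overlap was not counted. By the test described further below, at total counts, 155 of 413 tested genes passed as higher in replicate 2 and 48 as higher in replicate 1. Many other genes thus leaned the same way. The means were 83.5 ± 20.6 CPM for Mir221 and 38.0 ± 17.1 CPM for Mir222 (n = 2 each). Mir221 stood at place 195 and Mir222 at place 233 among the 327 detected genes. Their levels lay far above the 0.872 and 0.514 CPM that 3 counts, the limit a count of 0 allows, make in replicates 1 and 2. As a pair with a common seed, Mir221 and Mir222 reached 94.8 CPM in replicate 1 together, and 148 CPM in replicate 2.

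**Figure D2:**
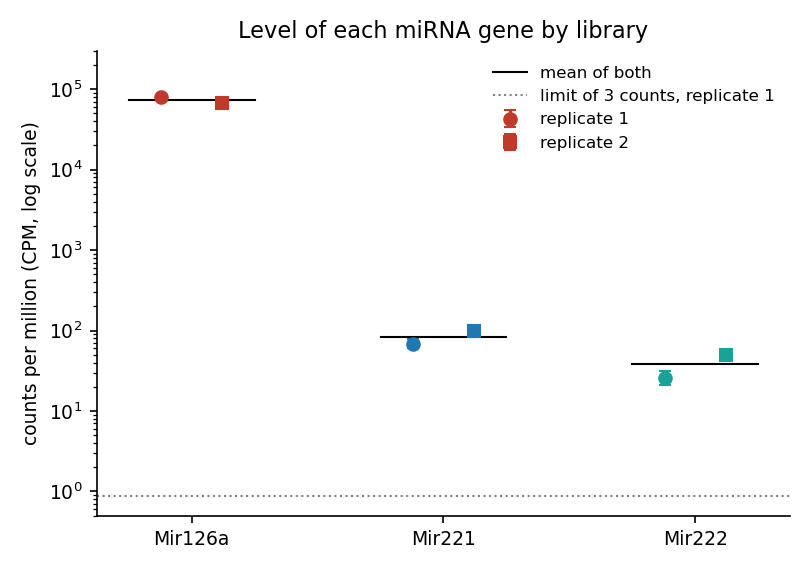
Level of Mir126a, Mir221 and Mir222 in CPM on a log scale, with a circle for replicate 1, a square for replicate 2, bars for exact binomial 95% intervals (smaller than most symbols) and a line for the mean. Mir126a lies at 79217 and 67775 CPM, while Mir221 and Mir222 lie between 25.9 and 98.1 CPM, all above the dotted limit of 3 counts.

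The order Mir126a, Mir221, Mir222 held in both libraries. The ratio of counts of Mir126a to Mir221 was 1149.7 in replicate 1, with exact 95% limits of 1012 and 1311, and 691 in replicate 2, with limits of 637 and 752. On the log2 scale this was 9.80 ± 0.52 (n = 2). The intervals do not overlap, so the ratio itself differed between the libraries beyond counting error. This is not particular to the pair. By the test described further below, 21.8% of tested genes passed as higher in replicate 1 and 24.7% as higher in replicate 2. The share of other pairs with such a difference was not counted. Against the summed seed pair, Mir126a stood at 836 in replicate 1 and 458 in replicate 2, a log2 ratio of 9.27 ± 0.61. The step from Mir222 to Mir221 was small beside these. The ratio of counts of Mir222 to Mir221 was 0.376 in replicate 1 (limits 0.291 and 0.481) and 0.510 in replicate 2 (limits 0.442 and 0.589), a log2 ratio of -1.19 ± 0.31. These intervals overlap, which does not show that the ratio was the same in both libraries, and its difference was not tested. Even the lower library of Mir221, at 68.9 CPM, lay above the higher library of Mir222, at 50.1 CPM. A ratio of counts of different miRNAs need not be one of their amounts, since sequences differ in how well they are captured into a library.

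In the order of levels, the gene just above Mir126a was Mir322, a miRNA of the Mir15 and Mir16 family on chromosome X, at 76810 ± 6030 CPM, closer than the SD of either gene. Just below was Mir99a at 61179 ± 2081 CPM, lower than Mir126a in both libraries. Next to Mir221 were Gm23935 (85.7 ± 10.8 CPM) and Mir138-2 (83.0 ± 2.24 CPM), both within its spread and both with a 20-base stretch found in another hairpin too. Next to Mir222 were Mir410 (39.3 ± 11.1 CPM) and Mir194-1 (37.7 ± 11.2 CPM), also within its spread. Mir194-1 too has a 20-base stretch found in another hairpin.

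Mir126a was higher in replicate 1, and Mir221 and Mir222 were higher in replicate 2. Scaled with edgeR's TMM factors (trimmed mean of M values), the log2 ratio of replicate 1 to replicate 2 was 0.40 for Mir126a (exact binomial 95% interval 0.39 to 0.41), a 1.32-fold difference. For Mir221 it was -0.34 (-0.56 to -0.12), and for Mir222 -0.78 (-1.14 to -0.43), or 1.72-fold. By the two-sided exact binomial test with Benjamini-Hochberg adjustment over 413 genes, the adjusted p was 0.00652 for Mir221 and 1.42e-05 for Mir222. For Mir126a it was too small for the computation to hold. All 3 genes thus passed the threshold of 0.05. Since it takes counting as the only source of noise, many genes pass it: 46.5% of the tested genes did, 21.8% as higher in replicate 1 and 24.7% as higher in replicate 2. Genes with more counts pass more easily. Among detected genes within 2-fold of the mean of Mir126a, itself included, 8 of 8 were called with TMM. In the same way 45 of 77 were called around Mir221 and 23 of 50 around Mir222. The test compares 2 libraries and no conditions. By total counts in place of TMM, the log2 ratio of every gene is lower by 0.17. The called genes then split into 48 higher in replicate 1 and 155 higher in replicate 2, against 90 and 102 with TMM, while the 3 genes kept their direction and their call.

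**Figure D3:**
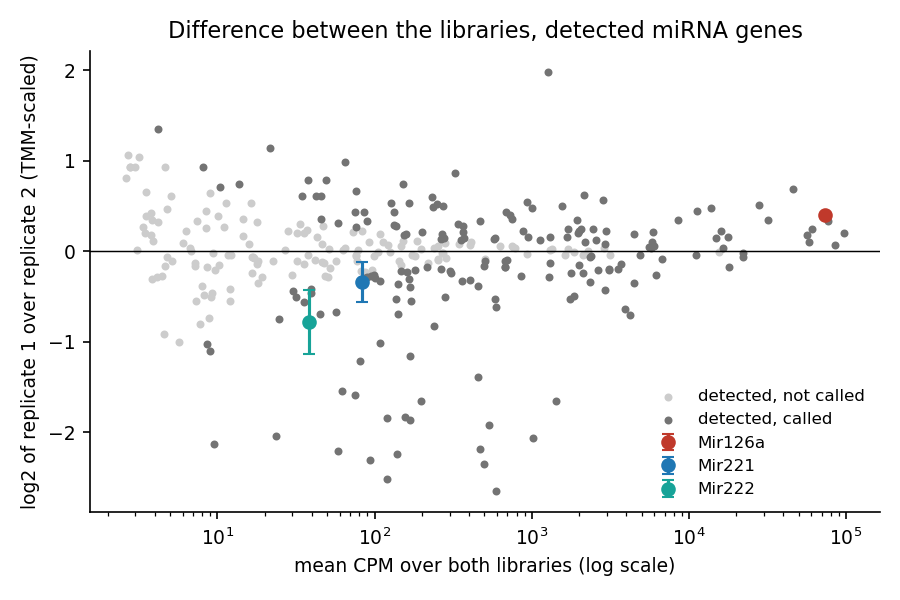
Log2 ratio of replicate 1 to replicate 2 after TMM scaling against the mean CPM (log scale) for the 327 detected genes, with called genes in dark grey and exact binomial 95% intervals on the 3 coloured genes. Mir126a lies at 0.40 on the abundant side, and Mir221 and Mir222 lie below 0 at -0.34 and -0.78.

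Genes of like level show how far others differed between the pools. Their distances from 0 hold both the spread between pools and counting noise, which weighs more at the low level of Mir222. Of the detected genes within 2-fold of the mean of Mir126a, 8 with itself, all 8 were higher in replicate 1 with TMM scaling, but 6 of 8 by total counts, an alternative chosen after seeing the data. Of the 7 others, 1 lay at least as far from 0 as Mir126a with either scaling. Around Mir221 this held for 28 of 76 others with TMM and for 19 by total counts. Around Mir222 it held for 8 of 49 with TMM and for 5 by total counts, with a median distance of 0.28 over the genes of like level and 0.78 for Mir222 with TMM. The differences of all 3 genes therefore lay within the range seen at their own level, which ran from -2.21 to 1.14 around Mir222.

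Marker miRNAs of other cells were set beside these differences. Their calls are to be read against the 46.5% of all tested genes that were called, and the lists hold 2 to 7 tested genes each. That share takes in genes with few counts, which pass less easily than abundant ones. In the heart muscle list, led by Mir208b of the myosin gene Myh7, 3 of 5 tested genes were called, all higher in replicate 1. The summed level of this list was 62461 CPM in replicate 1, against 45595 CPM in replicate 2, without the reads that Mir1a-1 and Mir133a-1 may have lost. The smooth muscle pair Mir143 and Mir145a was higher in replicate 1 after TMM scaling, 2 of 2 called, although it summed to 83564 CPM there and to 89291 CPM in replicate 2. By total counts, chosen after seeing the data, 1 of the pair was called in each direction. In the epithelium list (the Mir200 family, Mir203 and Mir205) 7 of 7 genes were called higher in replicate 2 with both scalings. Replicate 1 held 1821 CPM of that list and replicate 2 held 6297 CPM. In the leukocyte list 2 of 3 counted genes were called higher in replicate 2, with sums of 480 and 702 CPM in replicates 1 and 2. No counted gene matched the symbol Mir142, also on this list, so the sums lack it. The erythroid list had 1 gene called in each direction, with sums of 2457 and 1095 CPM. The fibroblast and mesenchyme list had 1 gene called higher in replicate 1 and 2 higher in replicate 2 (3 by total counts), with sums of 21521 and 24287 CPM. None of the counted genes in these lists was at 0 in both libraries, and the part of these cells in the differences of Mir126a, Mir221 and Mir222 was not tested.

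Mir221 and Mir222 differed between the pools in the same direction. Their log2 ratios were 0.44 apart, with overlapping intervals, which does not show that they were equal. Among 105 pairs of neighbouring detected genes on one strand with starts within 10 kb, 72 had both genes on the same side of 0. The shared direction was thus common among neighbours. The log2 ratios of 83 pairs lay closer together than those of Mir221 and Mir222, and the median distance was 0.22. In level, by contrast, the pair was closer than most, at a log2 ratio of mean CPM of 1.14 against a median of 3.11 over the pairs, and 20 pairs were closer.

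**Figure D4:**
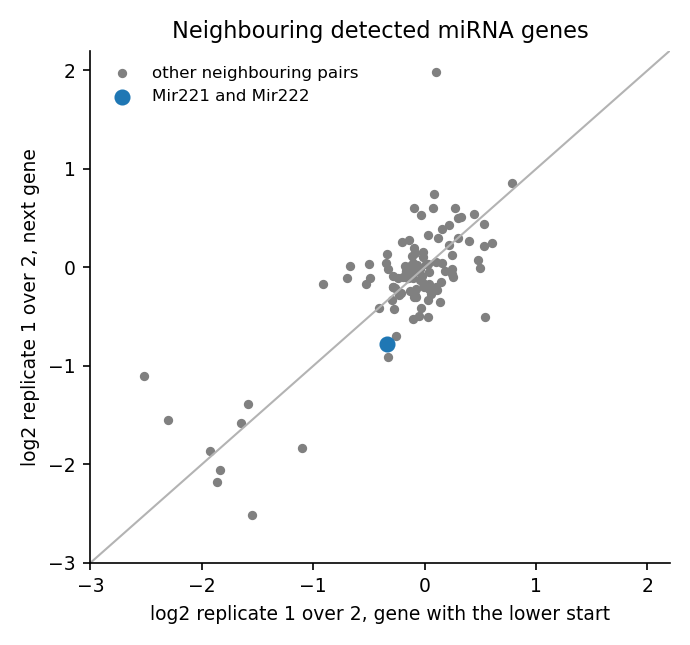
Log2 ratio of replicate 1 to replicate 2 (TMM-scaled) of the gene with the lower start on the x axis and of the next gene on the y axis, for 105 neighbouring pairs of detected miRNA genes, with equality as the grey line. Mir221 and Mir222, in blue, lie at -0.34 and -0.78, both below 0 and 0.44 apart.

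On chromosome X 36 miRNA genes were detected, with Mir322 the most abundant. Mir221 was the 25th and Mir222 the 28th of them by level, against a median of 187 CPM. Of the 36 genes 13 were called higher in replicate 1 and 12 higher in replicate 2 with TMM, 69.4% in all, beside the 46.5% of all tested genes, which also include genes with fewer counts. By total counts, chosen after seeing the data, the split was 7 and 19. Their median log2 ratio was 0.02 with TMM and -0.15 by total counts. Toward replicate 2, only the 5 genes of the Mir106a to Mir363 cluster (Mir20b, Mir363, Mir106a, Mir92-2 and Mir18b) lay further out than Mir222.

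Genes with the most similar pattern over the 2 libraries were found by the distance in log2 mean CPM and log2 ratio, which with 2 libraries says little beyond level. For Mir126a they were Mir322 (distance 0.09), Mir99a (0.31) and the smooth muscle miRNA Mir143 (0.39). For Mir221 they were Mir206 (0.08), known from skeletal muscle, Mirlet7c-2 (0.12) and Mir505 (0.12). Mirlet7c-2 shares a 20-base stretch with another hairpin, so its count can fall short. For Mir222 they were Mir760 (0.23), Mir135b (0.25) and Mir338 (0.32).

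Beside other miRNAs known from vessel biology, Mir126a stood near the top and the seed pair near the bottom. Of 31 such miRNAs 29 were counted, all of them detected. No counted gene matched the symbols Mir126b and Mir24-1, so no level can be given for them. Mir126a was second in level after Mir322 and gave 29.2% of the summed mean CPM. Mir221 was the 24th and Mir222 the 25th, below the list's median of 1309 CPM. Of the genes below Mir222, Mir218-2, Mir218-1 and Mir19b-1 share a 20-base stretch with another hairpin and may rank too low. The 15 genes with at least 1000 CPM included the paralogues Mir23a (22047 ± 2102 CPM) and Mir23b (17913 ± 3028 CPM), known to promote sprouting of vessels. Both are among the 11 of the 29 genes with a 20-base stretch found in another hairpin too, as are Mir92-1, Mir101b and Mir27b below, so their counts can fall short. Mir130a, known to repress antiangiogenic homeobox genes, had 17705 ± 154 CPM. Mir17, Mir20a, Mir18 and Mir92-1, of the Mir17-92 cluster, had 14840 ± 214, 5782 ± 377, 1992 ± 312 and 1628 ± 170 CPM. Mir100 had 6778 ± 840 CPM and Mir10a, a miRNA of the Hox clusters, 4210 ± 1757 CPM. Mir296 (2133 ± 222 CPM), Mir503 (1709 ± 121 CPM), Mir101b (1309 ± 11.7 CPM) and Mir27b (1309 ± 102 CPM) completed them.

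The other vascular miRNAs, from Mir210 at 747 ± 66.6 CPM down to Mir19b-1 at 4.61 ± 0.76 CPM, were Mir24-2, Mir27a, Mir34a, Mir132, Mir155, Mir152, Mir101a, Mir218-2, Mir19a and Mir218-1. Between the libraries 11 of the 29 were called higher in replicate 1 and 9 higher in replicate 2, beside 21.8% and 24.7% of all tested genes. The tested genes include many with fewer counts, which pass less easily, so these shares are not a like comparison. The median level was 1309 CPM in the list and 146 CPM over all detected genes. By total counts the split was 5 and 18. The list's median log2 ratio, -0.04, was that of all tested genes, also -0.04. The largest called differences toward replicate 1 were those of Mir34a (0.49), known for its rise in ageing vessels and heart, Mir101a (0.43) and Mir126a (0.40). Toward replicate 2 they were those of Mir222 (-0.78), Mir10a (-0.70) and Mir155 (-0.55), a miRNA of leukocytes and inflamed vessels. Mir126a and Mir222 were thus each among the 3 genes of this list that lay furthest out in their direction.

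**Figure D5:**
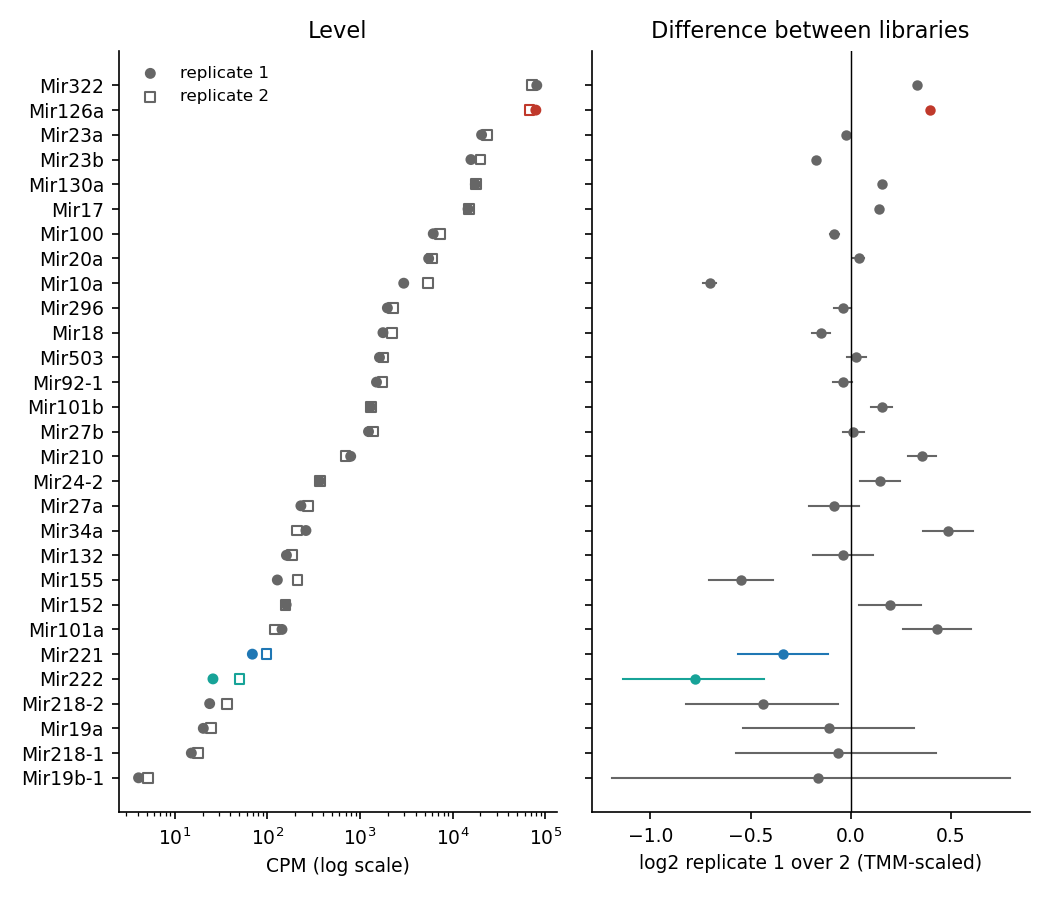
The 29 counted miRNAs known from vessel biology, ordered by mean CPM: the left panel gives the CPM in replicate 1 (filled circles) and replicate 2 (open squares) on a log scale, and the right panel the TMM-scaled log2 ratio of replicate 1 to replicate 2 with exact binomial 95% intervals. Mir126a (red) is second in level, while Mir221 and Mir222 (blue, green) are 24th and 25th and lie left of 0.

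On the strand opposite Mir126a, replicate 1 had 16 counts and replicate 2 had 20, and opposite Mir221 and Mir222 both libraries had 0. With 237 and 572 counts on the strand of Mir221, a count of 0 allows up to 1.27% and 0.524% of that number opposite it. Opposite Mir222 it allows up to 3.37% and 1.03%. A separate miRNA gene, Mir126b, is annotated there in a later release on the minus strand of chromosome 2, positions 26591363 to 26591420. Its hairpin is the exact complement of bases 7 to 64 of the Mir126a hairpin and is shown, with its arms in capitals, since a read from it would be counted as opposite Mir126a.
Mir126b: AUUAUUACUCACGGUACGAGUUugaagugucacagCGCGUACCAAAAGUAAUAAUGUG
Whether any of these counts are reads of Mir126b was not tested.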

How the data were processed

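Small RNA libraries from total RNA were counted by the authors, 1 file per library. Per the deposited text files, reads were placed on mm10 and the counts refer to GENCODE M4. For the aligner, trimmer and counter no name is given in the labels or text files. The deposited files hold raw counts of reads, whole numbers without normalization, for either strand of each miRNA gene, for its own strand and for the opposite one. The gene's strand was used, an order checked on the values. Lines that name no gene stayed out of totals: unmapped reads were 13.1% and 15.1% of the reads of replicates 1 and 2, and multiply matching reads 33.0% and 30.1%.

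Symbols and positions came from GENCODE M21 (same assembly), which matched 1894 of 1973 IDs, the other 79 holding 1 and 4 counts. Sequences came from RefSeq (GRCm38.p6), and target sites from GENCODE M21 transcripts, using the longest 3′ untranslated region per coding gene.

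TMM factors (0.942 and 1.06) came from edgeR 4.0.16 under R 4.3.3. Genes with at least 10 counts summed were compared by an exact two-sided binomial test, whose null share came from the TMM-scaled totals, and p-values were adjusted after Benjamini-Hochberg. Alternatives were total counts, DESeq2 1.42.0 size factors, other filters, denominators and strand columns, and each library alone. The binomial test was tried on simulated counts with counting noise alone, scaled by total counts. This did not cover spread between pools or TMM scaling. Without molecular identifiers, intervals cover counting error only. Named genes were all members, vascular miRNAs of at least 1000 CPM or with the 3 largest called differences each way, genes sharing a seed, the 3 nearest genes in pattern, adjacent genes in level and markers. The members and lists were chosen with earlier results of these data known. Tests ran in scipy 1.17.1 under Python 3.11.15.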

Additional observations from a re-analysis of the deposited data

Results flagged for a closer look

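Counts on the strand opposite Mir126a stood out because they lie in a column that the levels do not use and exceed the 3 counts that a count of 0 allows. Replicate 1 had 16 such counts and replicate 2 had 20, or 58.7 and 50.6 per 1000000 counts on the strand of Mir126a.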

How the results depend on the processing

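The differences of Mir126a, Mir221 and Mir222 between the libraries kept their direction and stayed past the threshold under total counts, DESeq2 size factors, TMM from genes with no shared stretch, and no filter on low counts. The log2 ratios ranged from 0.23 to 0.44 for Mir126a, -0.51 to -0.30 for Mir221 and -0.95 to -0.74 for Mir222. The number of called genes, 192, came to 60 when a fold of at least 1.5 was also required, which by its construction keeps fewer genes. Mir126a and Mir221 would not pass that fold, and Mir222 would. In the vascular list, total counts gave 5 genes called higher in replicate 1 and 18 higher in replicate 2, against 11 and 9, and DESeq2 size factors turned the median log2 ratio from -0.036 to 0.0038.

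Other denominators moved the levels of Mir126a, Mir221 and Mir222 by construction, to 36150, 41.2 and 18.7 per 1000000 of all reads of the library, and to 168565, 190.0 and 86.0 CPM without the 10 most abundant other genes in the total. With each library left out in turn, the levels ranged from 67775 to 79217, 68.9 to 98.1 and 25.9 to 50.1 CPM. The log2 ratios of counts then ranged from 9.43 to 10.17 for Mir126a to Mir221, 10.40 to 11.58 for Mir126a to Mir222, -1.41 to -0.97 for Mir222 to Mir221, and 8.84 to 9.71 for Mir126a to the seed pair. Of 81 alternative values, those chosen after seeing the data included, 64 stayed within the spread, within 1.5 times the count, or on the same side of the threshold. Some of these could not come out otherwise. A single library always lies within the SD of 2, and leaving out the filter cannot change a gene's log2 ratio. The tally is therefore no measure of how robust the results are. With 2 pools, the SD rests on 1 difference. No paired analysis was possible because there is 1 group.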
